A study of Sus scrofa with 42 samples.

Results

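The genes described here were 10 transcripts of the oocyte, chosen by name from the gene table: the secreted growth factors GDF9 and BMP15, the zona pellucida glycoproteins ZP2, ZP3 and ZP4, and the subcortical maternal complex genes NLRP5, OOEP, TLE6, PADI6 and NLRP2. Of these, 8 were listed by name among 15351 genes. NLRP5 and NLRP2 were not listed under these names. Pig embryos were made in vitro from MII oocytes that had matured in culture after collection from ovaries of slaughtered gilts. IVF embryos came from co-incubation of the oocytes with fresh boar semen, and PA embryos (parthenotes) came from oocytes stimulated by electric pulses and then held in 6-dimethylaminopurine and cytochalasin B, so that they carried maternal chromosomes only. Both kinds were cultured in the same zygote medium, PZM-3. RNA of 42 single cells was sequenced, 21 from IVF and 21 from PA embryos. Whole 1-cell embryos were taken at 19 h, and blastomeres at 27 h (2-cell), 48 h (4-cell) and 72 h (8-cell). Hours were counted from the end of the co-incubation with semen in IVF and from the electric pulses in PA. Equal hours are therefore not equal times since the first contact with sperm or the pulses. Each method had 3 embryos at the 1-cell stage (1 cell each), 3 at the 2-cell stage (2 cells each) and 3 at the 4-cell stage (2 to 4 cells each), but only 1 embryo at the 8-cell stage (3 cells). The embryo, as the mean of its blastomeres, was the replicate, and n below counts embryos unless cells are named. The sources do not say whether embryos shared a culture day or an ovary, so p-values measure only the spread between these embryos.

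An oocyte makes and stores the transcripts that carry the embryo until its own genome is switched on, and removes many of them around that time. GDF9 and BMP15 are growth factors of the TGF-beta family that the oocyte secretes to the surrounding granulosa and cumulus cells. The zona proteins form the coat that sperm must bind and cross, and are made while the oocyte grows. The subcortical maternal complex lies beneath the oocyte membrane, is inherited by the blastomeres and is required for the first cleavages in mice.

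On Sscrofa11.1, the table placed BMP15 (ENSSSCG00000012310) at chrX:44613122-44619398 on the plus strand and GDF9 (ENSSSCG00000014288) at chr2:135180426-135187026 on the minus strand. ZP4 (ENSSSCG00000010141) lay at chr14:53577131-53584546 (+), ZP2 (ENSSSCG00000007851) at chr3:24863730-24877522 (+) and ZP3 (ENSSSCG00000007691) at chr3:9934760-9944941 (-). PADI6 (ENSSSCG00000003484) lay at chr6:75969886-75987096 (+), OOEP (ENSSSCG00000004285) at chr1:53006898-53007877 (-) and TLE6 (ENSSSCG00000024588) at chr2:75538359-75542331 (-). Values are for protein-coding genes as these spans delimit them, which need not hold the whole RefSeq gene. The RefSeq mRNA of BMP15 holds an AATAAA that ends at chrX:44620560, past the span given here. The 250 bases before the RefSeq start of TLE6 are chr2:75550551-75550800, so that this start lies outside its span. Those of GDF9, chr2:135184452-135184701, lie inside its span. What this does to the values was not tested. The sources do not state whether counting used the strand, and 4 of these genes overlap another gene on the opposite strand. ZP2 shares bases with TMEM159, whose FPKM followed that of ZP2 with Pearson r = 0.803 over 42 cells (log2 scale). The other overlaps were GDF9 with UQCRQ (r = 0.0142), OOEP with ENSSSCG00000004284 (r = 0.210) and TLE6 with TLE2 (r = 0.0332).

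Zona genes are known in mice as targets of FIGLA, an oocyte transcription factor that binds E-boxes, so the 250 bases before their RefSeq starts (Sscrofa11.1) are shown, with that of BMP15 for contrast. They are chr3:24863480-24863729 (+) for ZP2, chr3:9944925-9945174 (-) for ZP3, chr14:53576888-53577137 (+) for ZP4 and chrX:44612872-44613121 (+) for BMP15. Capitals mark CANNTG, which reads the same motif on both strands.
ZP2: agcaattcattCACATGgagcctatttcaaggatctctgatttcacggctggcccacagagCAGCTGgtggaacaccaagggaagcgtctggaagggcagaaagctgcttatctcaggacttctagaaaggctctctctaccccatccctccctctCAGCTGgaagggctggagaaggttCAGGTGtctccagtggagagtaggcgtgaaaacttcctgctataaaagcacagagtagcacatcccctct
ZP3: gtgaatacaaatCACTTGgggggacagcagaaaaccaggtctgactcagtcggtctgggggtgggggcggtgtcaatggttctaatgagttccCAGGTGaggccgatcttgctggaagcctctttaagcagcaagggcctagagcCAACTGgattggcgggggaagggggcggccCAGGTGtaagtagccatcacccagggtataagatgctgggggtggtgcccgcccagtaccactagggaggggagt
ZP4: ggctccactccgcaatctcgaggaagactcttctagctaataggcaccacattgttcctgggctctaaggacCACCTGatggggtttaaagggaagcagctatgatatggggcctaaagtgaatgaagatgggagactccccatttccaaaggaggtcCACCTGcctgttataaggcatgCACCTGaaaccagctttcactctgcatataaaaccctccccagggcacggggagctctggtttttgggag
BMP15: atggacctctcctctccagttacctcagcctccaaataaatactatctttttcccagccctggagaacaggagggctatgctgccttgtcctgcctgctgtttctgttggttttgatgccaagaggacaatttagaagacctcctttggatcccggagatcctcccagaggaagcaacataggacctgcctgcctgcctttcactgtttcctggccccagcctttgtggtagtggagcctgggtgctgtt
ZP2 held 4 copies, ZP3 4, ZP4 3 and BMP15 0, and no copy overlapped another. The copy nearest to the start began 70 bases before it in ZP2 and ZP4 and 75 bases before it in ZP3. It read CAGGTG in ZP2 and ZP3 and CACCTG, the same letters on the other strand, in ZP4. Of 19534 pig promoter windows of this length, 61.5% held at least 1 copy, 10.2% at least 3 and 3.13% at least 4. Of the subcortical genes, NLRP5 and TLE6 held 4 copies, OOEP 3, and PADI6 and NLRP2 2, and GDF9 held 1. A match describes these letters only.

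Values are FPKM, in which the fragments of a gene are scaled to its length in kilobases and to the size of the library. They give a transcript's share of a library, so that a change in a transcript cannot be told apart from a change in the rest of the library. Whole fragments could be recovered from the steps between FPKM values, and each cell held 3698297 to 12924863 fragments on these genes, with a median of 8856134. The shallowest cell was an IVF 8-cell blastomere. The share of FPKM from the 13 mitochondrial mRNAs was higher at later stages, from 10.7% ± 5.89 (SD, n = 3) in IVF and 10.8% ± 0.563 (n = 3) in PA 1-cell embryos to 38.6% and 41.0% in the single 8-cell embryos. The 7 decreases called below were called again after these mRNAs were left out and the nuclear genes rescaled. Naming cells by method, stage, embryo and blastomere, PA 2-cell-2-1 and PA 4-cell-2-1 had r = 0.999 over genes, and so had PA 2-cell-1-2 and PA 4-cell-1-4, while the highest of the other 859 pairs reached 0.908. These 2 PA 4-cell blastomeres therefore nearly repeated PA 2-cell libraries, and values without them are given beside the main results of the PA 4-cell group. PA 4-cell embryo 1 was then a single cell. No count of the 8 genes called changed without them, while counts of other genes did. Leaving them out moves the mean of the PA 4-cell group only. In comparisons without that group, calls were therefore gained or lost at an unchanged fold.

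The labels name embryos, while the extraction text speaks of oocytes, and the cells were checked against markers. The 9 oocyte markers in the table (of 11 sought) summed to 1488 ± 208 FPKM in IVF and 1602 ± 253 in PA 1-cell embryos (SD, n = 3 each), with BTG4, an adaptor for the removal of maternal mRNA, as the most abundant. Their sum was 852 ± 302 and 1054 ± 114 at the 4-cell stage and 3.97 and 36.7 in the IVF and PA 8-cell embryos. Of 17 cumulus and granulosa markers 6 were in the table, and none of these was at 0 in every cell. They summed to between 22.4 and 73.5 FPKM in the group means up to the 4-cell stage and to 11.13 (IVF) and 7.29 (PA) at the 8-cell stage, most of it KITLG in each of the 1-, 2- and 4-cell groups. Of 11 sperm markers only AKAP4 was listed, at 0 in all 1-cell embryos of both methods and below 1 FPKM in every group mean. The part of these other cell types in the results was not tested.

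From the 1-cell to the 4-cell stage none of the 7 genes tested was called as changed at either step or over both, in IVF or in PA. This depended on the settings. With each cell scaled by its median ratio over nuclear genes, BMP15, ZP4 and PADI6 were called higher in PA by the 4-cell stage, and ZP4 in IVF. With means of log2 over blastomeres, GDF9 and ZP2 were called lower in PA. The values are given below. In the single 8-cell embryos BMP15 was called lower in both methods, ZP4 in PA, and PADI6 in IVF when set against the 1-cell stage. GDF9, ZP2, ZP3 and OOEP were not called in any comparison with these settings. Tests were limma fits across 8116 genes of log2(FPKM + 1), and a gene was called at an adjusted p below 0.05 with a change of at least 2-fold. TLE6 did not reach the minimum (FPKM of 1 in 3 cells) and was not tested. Since each 8-cell group was 1 embryo, its spread was taken from the other groups, and a change of stage cannot be told apart from a trait of that embryo. The median SE over all genes was 0.816 on the log2 scale between groups of 3 embryos and 1.15 against an 8-cell embryo. Changes of a few fold can therefore go uncalled, and larger ones against an 8-cell embryo. From the 4-cell to the 8-cell stage a 14.6-fold change of PADI6 in IVF and a 12.2-fold change of ZP2 in PA were not called.

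From the 4-cell to the 8-cell stage 1 of 7 genes was called lower in IVF, where 3.25% of all genes tested were called lower, and 2 of 7 in PA, against 3.18% of all. No gene of the 7 was called higher at this step in either method, against 3.72% and 6.81% of all, although ZP2 in PA was called higher when IVF 4-cell embryo 2 was left out (3.61, limma adjusted p = 0.0467). From the 1-cell to the 8-cell stage 2 of 7 were called lower in IVF (8.23% of all genes) and 2 of 7 in PA (6.21%), and none higher (6.03% and 7.58%). Median-ratio scaling called ZP2 and PADI6 higher in PA over this span, beside 1695 of all 8116 genes. The median change of the 7 genes from the 4-cell to the 8-cell stage was -2.0 in IVF and -1.54 in PA on the log2 scale, beside medians of -0.38 and -0.15 over all genes. From the 1-cell stage the medians were -1.94 and -1.06, beside -0.77 and -0.58. The earlier comparisons called 0 of 7 by limma. At an unadjusted p under 0.05 the count of the 7 was 0 from 1-cell to 2-cell in IVF and 2 in PA (ZP2 and ZP4, both with lower values), 1 from 2-cell to 4-cell in IVF and 1 in PA (ZP4 in each, with higher values), and from 1-cell to 4-cell 1 in IVF (ZP4) and 2 in PA (GDF9 and ZP2). Of all genes, 2.66% and 4.85% had such a p from 1-cell to 2-cell in IVF and PA, 17.6% and 10.8% from 2-cell to 4-cell, and 20.6% and 15.7% from 1-cell to 4-cell. The shares of all genes called were 0% and 0.0986% from 1-cell to 2-cell in IVF and PA, 1.11% and 0.394% from 2-cell to 4-cell, and 2.21% and 0.949% from 1-cell to 4-cell. Leaving out the near-duplicate cells, 601 in place of 32 of the 8116 genes were called in PA from 2-cell to 4-cell and 881 in place of 77 from 1-cell to 4-cell, with 0 of the 7 among them.

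**Figure D1:**
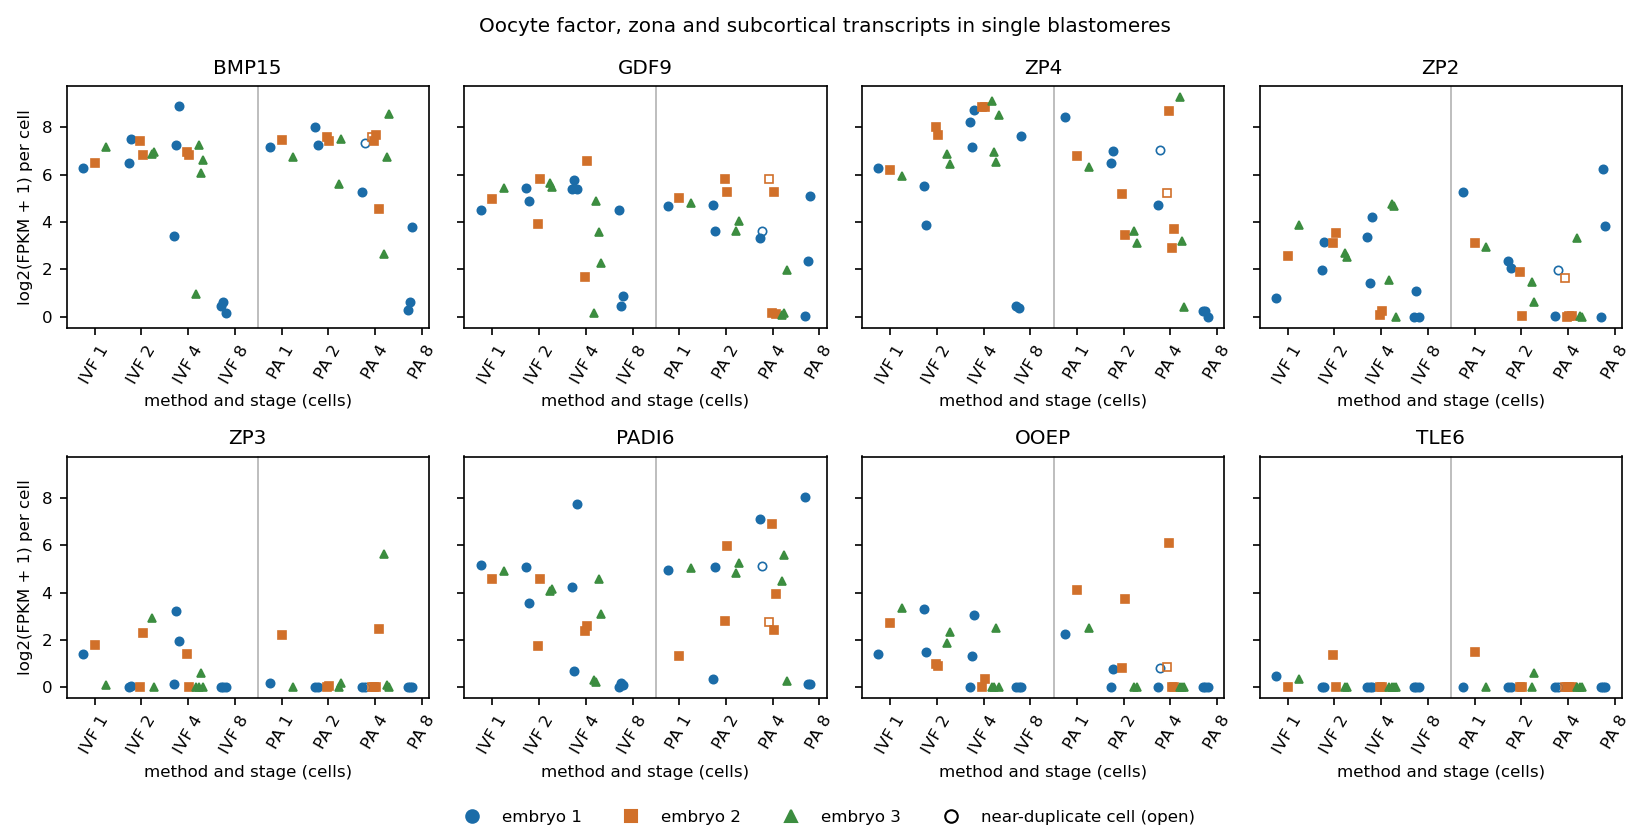
Each panel shows 1 gene as log2(FPKM + 1) in each of the 42 cells (points) by method and stage, with symbols for embryos 1 to 3 and open symbols for the 2 near-duplicate cells. BMP15 lay at or above 47.6 FPKM in every 1- and 2-cell sample and at 0.555 FPKM or less in 5 of 6 8-cell blastomeres, while TLE6 lay near the bottom of its panel throughout.

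Among the secreted factors, BMP15 was the more abundant per length up to the 4-cell stage and the one called lower at the 8-cell stage. In IVF 1-cell embryos it was at 77.0, 89.98 and 142 FPKM, in 2-cell embryos at 134, 142 and 120, and in 4-cell embryos at 212, 117 and 79.1. In PA it was at 141, 174 and 108 FPKM in 1-cell embryos, 205, 181 and 113 in 2-cell embryos and 98.7, 146 and 163 in 4-cell embryos. Without the near-duplicate cells PA 4-cell embryo 1 was at 37.1 FPKM, below every other 1-, 2- and 4-cell embryo, in place of 98.7. These 6 groups overlapped, with means from 103 ± 34.4 FPKM (SD, n = 3, IVF 1-cell) to 166 ± 47.7 (n = 3, PA 2-cell). The IVF 8-cell embryo had 0.357 FPKM and the PA 8-cell embryo 4.47, both below every earlier embryo. In the IVF 8-cell embryo the blastomeres held 0.385, 0.555 and 0.131 FPKM, which rested on 5, 19 and 4 fragments. In the PA 8-cell embryo they held 0.220, 0.527 and 12.7 FPKM, so that 1 of its 3 cells carried most of what was measured.

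On the log2(FPKM + 1) scale BMP15 was down-regulated from the 4-cell to the 8-cell stage by -6.54 (SE 0.685) in IVF, a 93.1-fold change (limma adjusted p = 4.88e-06). In PA the same step gave -4.61 (SE 0.685), or 24.5-fold (limma adjusted p = 0.000237). Without the near-duplicate cells the PA value was -4.10 (SE 0.854, limma adjusted p = 0.00401). Against the 1-cell stage the changes were -6.21 in IVF and -4.67 in PA (limma adjusted p = 5.59e-06 and 0.000171). The difference between the methods at this step was -1.93 (SE 0.969) and was not called (limma adjusted p = 0.387). When only the groups compared entered the fit the changes kept their size but not the call, with limma adjusted p = 0.158 in IVF and 0.0616 in PA.

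GDF9 was at 22.0, 30.1 and 42.4 FPKM in IVF 1-cell embryos, at 35.1, 34.9 and 46.2 in 2-cell embryos and at 44.7, 48.2 and 10.9 in 4-cell embryos. The PA embryos had 24.5, 31.1 and 26.6 FPKM at the 1-cell stage, 18.3, 46.6 and 13.5 at the 2-cell stage and 10.2, 23.4 and 1.05 at the 4-cell stage. Successive stages overlapped within each method, while all 3 PA 4-cell embryos lay below all 3 PA 1-cell embryos. Without the near-duplicate cells the PA 4-cell mean was 7.53 ± 5.90 FPKM (SD, n = 3) in place of 11.5 ± 11.2, and the embryos, at 8.96, 12.6 and 1.05 FPKM, then lay below all 3 PA 2-cell embryos too. The 8-cell embryos had 7.74 (IVF) and 12.5 (PA) FPKM, from blastomeres at 22.0, 0.373 and 0.827 in IVF and 0.0402, 4.19 and 33.4 in PA. In each 8-cell embryo, then, a single cell held a level like that of the 1-cell stage. GDF9 changed from the 4-cell to the 8-cell stage by -1.77 in IVF and 0.72 in PA (SE 1.11 each) and was not called (limma adjusted p = 0.435 and 0.877). Against the 1-cell stage the changes were -1.84 and -1.06 (SE 1.11 each, limma adjusted p = 0.281 and 0.586). How the blastomeres were joined mattered for the IVF value, which was called at -3.02 with means of log2 (limma adjusted p = 0.0479) and at -4.10 with medians (limma adjusted p = 0.0399). With means of log2 the PA change from the 1-cell to the 4-cell stage was also called (-2.47, limma adjusted p = 0.0369). Median-ratio scaling turned these signs without a call, to 0.38 (IVF) and -0.35 (PA) from the 4-cell stage, 1.69 and 0.58 from the 1-cell to the 8-cell stage and 0.92 in PA from the 1-cell to the 4-cell stage. At the 4-cell stage IVF exceeded PA by 1.86 (SE 0.788), which was not called either (limma adjusted p = 0.284).

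The ratio of BMP15 to GDF9 in FPKM was 3.28 ± 0.261 (SD, n = 3) in IVF and 5.13 ± 0.941 in PA 1-cell embryos. The lowest PA ratio, 4.04, was above all 3 IVF ratios at this stage, and no test was made. At the 2-cell stage the ratios were 3.49 ± 0.789 and 7.83 ± 3.71 and overlapped, and at the 4-cell stage they ran from 2.43 to 7.29 in IVF and from 6.24 to 156 in PA (from 4.14 without the near-duplicate cells). In the 8-cell embryo means GDF9 exceeded BMP15, with ratios of 0.0461 in IVF and 0.357 in PA, where a single blastomere held most of the GDF9. BMP15 was above GDF9 in IVF 8-cell-1-2 (0.555 and 0.373 FPKM) and PA 8-cell-1-1 (0.220 and 0.0402). GDF9 was the higher in the other 8-cell blastomeres. Over the 20 embryos GDF9 and BMP15 had r = 0.347, and over the 42 cells r = 0.529, on the log2 scale. Sister cells share an embryo and cells of a group share a stage, so these are descriptions only.

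ZP4, a zona protein whose gene is not functional in mice, was the most abundant zona transcript per length up to the 4-cell stage. IVF 1-cell embryos had 76.2, 72.4 and 60.95 FPKM, 2-cell embryos 29.5, 230 and 102, and 4-cell embryos 285, 465 and 284. The PA 1-cell embryos had 347, 109 and 79.0 FPKM, the 2-cell embryos 108, 22.6 and 9.47, and the 4-cell embryos 78.3, 117 and 208. All IVF 4-cell embryos were above all IVF 1- and 2-cell embryos, but the change from the 2-cell stage, 1.90 (SE 0.805) on the log2 scale, was not called (limma adjusted p = 0.226). Under median-ratio scaling ZP4 was called higher in IVF from the 1-cell to the 4-cell stage (4.10, limma adjusted p = 0.0334) and in PA from the 2-cell to the 4-cell stage (3.92, limma adjusted p = 0.0109). The PA groups overlapped, and PA 4-cell embryo 1 was at 24.97 in place of 78.25 FPKM without the near-duplicate cell. The IVF 8-cell embryo had 65.2 FPKM, all but a trace of it from 1 blastomere at 195, with the others at 0.355 and 0.314. The PA 8-cell embryo had 0.203, 0.187 and 0 FPKM, the last with an upper limit of 0.0671 FPKM (3 fragments). Limits of this kind cover counting error only, since amplified fragments are not independent molecules.

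From the 4-cell to the 8-cell stage ZP4 fell in PA by -6.79 on the log2 scale (SE 1.14, 111-fold, limma adjusted p = 0.000686), and by -6.35 without the near-duplicate cells (SE 1.30, limma adjusted p = 0.00371). Fitted on the PA 4-cell and 8-cell embryos alone, the change from the 4-cell stage kept its size but not the call (limma adjusted p = 0.0616). Against the 1-cell stage the PA change was -7.01 (SE 1.14, 129-fold, limma adjusted p = 0.000419). In IVF the step gave -2.34 (SE 1.14) and was not called (limma adjusted p = 0.269). Against the 1-cell stage the IVF change was -0.09 (SE 1.14, limma adjusted p = 0.980), -5.70 and called with medians over blastomeres (limma adjusted p = 0.00909) and 3.52 with median-ratio scaling (limma adjusted p = 0.0555). How the blastomeres were joined also decided the calls from the 4-cell stage. With their median, the IVF change from the 4-cell stage was -7.90 and called (limma adjusted p = 0.00108). The PA change from that stage then lost its call at -4.48 (limma adjusted p = 0.0620). The difference of the step between the methods was 4.45 (SE 1.61, limma adjusted p = 0.163), and 6.72 with a pseudocount of 0.1, where it was called (limma adjusted p = 0.0396).

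ZP2 was less abundant than ZP4 per length in every group but the PA 8-cell embryo. In IVF it was at 0.747, 4.88 and 13.5 FPKM in 1-cell embryos, 5.44, 9.14 and 5.14 in 2-cell embryos and 9.50, 0.122 and 13.2 in 4-cell embryos. In PA it was at 36.9, 7.59 and 6.73 FPKM, then 3.63, 1.38 and 1.17, then 1.46, 0.549 and 2.98. The PA 2- and 4-cell embryos were all below the PA 1-cell embryos, and the IVF groups overlapped. The PA change from the 1-cell to the 4-cell stage, -2.46 (SE 0.972, limma adjusted p = 0.217), was called with means of log2 (-2.92, limma adjusted p = 0.0291). The PA 4-cell mean was 1.66 ± 1.23 FPKM (SD, n = 3), and 1.00 ± 1.71 without the near-duplicate cells. The PA 8-cell embryo stood at 29.2 FPKM, from blastomeres at 0, 74.1 and 13.4, of which 74.1 was the highest of all 42 cells. TMEM159, which overlaps ZP2, ran from 0.0138 to 15.2 FPKM in the same 3 blastomeres, and its part in the ZP2 values was not tested. The IVF 8-cell embryo had ZP2 at 0.379 FPKM, with 2 of 3 cells at 0. The PA step gave 3.61 (SE 1.37) and was not called (limma adjusted p = 0.118). With each cell scaled by its median ratio over 1070 nuclear genes it was 6.25 and was called (limma adjusted p = 0.00141), as was the change from the 1-cell stage (4.87, limma adjusted p = 0.00797, in place of 1.15 and 0.642).

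ZP3 was listed at 0 in 20 of 42 cells and at an FPKM of at least 1 in 10. IVF embryos had 1.64, 2.41 and 0.0828 FPKM at the 1-cell stage, 0.0144, 1.93 and 3.33 at the 2-cell stage and 3.78, 0.824 and 0.135 at the 4-cell stage. The PA embryos had 0.151, 3.63 and 0, then 0.0128, 0.0199 and 0.0804, then 0.0109, 1.14 and 16.3. The PA 2-cell embryos lay below all IVF 1-cell and 4-cell embryos, the other groups up to the 4-cell stage overlapped, and the PA 4-cell value of 16.3 came from 1 blastomere at 48.9. ZP3 was at 0 in all 6 8-cell blastomeres, with upper limits from 0.0653 to 0.228 FPKM per cell. Of the summed FPKM of ZP2, ZP3 and ZP4, ZP4 made up 89.9% ± 7.61 (SD, n = 3) in IVF and 91.1% ± 0.965 in PA 1-cell embryos, and 97.0% ± 2.46 and 96.1% ± 3.96 at the 4-cell stage. In the 8-cell embryos its share was 99.4% in IVF and 0.444% in PA, where ZP2 held 99.6%.

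PADI6 is a peptidylarginine deiminase family member needed in mice for the oocyte's cytoplasmic lattices. It was the most abundant per length of the subcortical genes listed by name. IVF embryos had 35.2, 22.8 and 28.8 FPKM at the 1-cell stage, 21.8, 12.7 and 16.3 at the 2-cell stage and 76.3, 4.60 and 7.76 at the 4-cell stage. PA embryos had 29.7, 1.52 and 32.1, then 16.4, 33.7 and 32.0, then 85.7, 35.0 and 23.0 FPKM (137.5, 44.8 and 23.0 without the near-duplicate cells). The 2-cell embryos of IVF were all below its 1-cell embryos, and the PA groups overlapped. In the IVF 8-cell embryo PADI6 was at 0, 0.128 and 0.0718 FPKM in the 3 cells. In the PA 8-cell embryo 1 cell held 258.9 FPKM, the highest of all 42 cells, and the others 0.111 and 0.112.

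PADI6 was down-regulated in IVF from the 1-cell to the 8-cell stage by -4.79 on the log2 scale (SE 1.36, 27.6-fold, limma adjusted p = 0.0235). The call was lost without IVF 1-cell embryo 1 or 3 (limma adjusted p = 0.0515 and 0.0519), with a pseudocount of 5 (-2.73, limma adjusted p = 0.101) and with median-ratio scaling (-2.94, limma adjusted p = 0.168). From the 4-cell stage the IVF change was -3.87 (SE 1.36, limma adjusted p = 0.101), and without IVF 4-cell embryo 2 it was -4.61 and called (limma adjusted p = 0.0409). In PA, PADI6 gave 2.68 from the 1-cell stage (SE 1.36, limma adjusted p = 0.221), and 6.98 with median-ratio scaling, where it was called as higher (limma adjusted p = 0.00119). Under that scaling PADI6 was also called higher in PA at the 4-cell stage, against the 2-cell (4.36, limma adjusted p = 0.0115) and the 1-cell stage (5.37, limma adjusted p = 0.00193). The PA mean at the 8-cell stage rested on 1 blastomere.

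OOEP, a KH-domain-like protein of the same complex, was detected in every 1-cell embryo and in fewer cells at each later stage. It reached an FPKM of at least 1 in 6 of 6 cells at the 1-cell stage, 5 of 12 at the 2-cell stage, 4 of 18 at the 4-cell stage and 0 of 6 at the 8-cell stage. The 1-cell embryos had 1.64, 5.58 and 9.24 FPKM in IVF and 3.81, 16.1 and 4.74 in PA. In the 8-cell blastomeres it was at 0, with upper limits from 0.192 to 0.670 FPKM. At the 4-cell stage 1 PA blastomere (PA 4-cell-2-2) held 66.7 FPKM, the highest of all cells, while 11 of 18 cells were at 0. The change from the 1-cell to the 8-cell stage was -2.49 in IVF and -2.96 in PA (SE 1.51 each), and was not called (limma adjusted p = 0.281 and 0.221). TLE6, a Groucho family member of the complex, was above 0 in 5 of 42 cells, with a highest FPKM of 1.81 in PA 1-cell embryo 2, and was at 0 in all 4-cell and 8-cell cells.

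**Figure D2:**
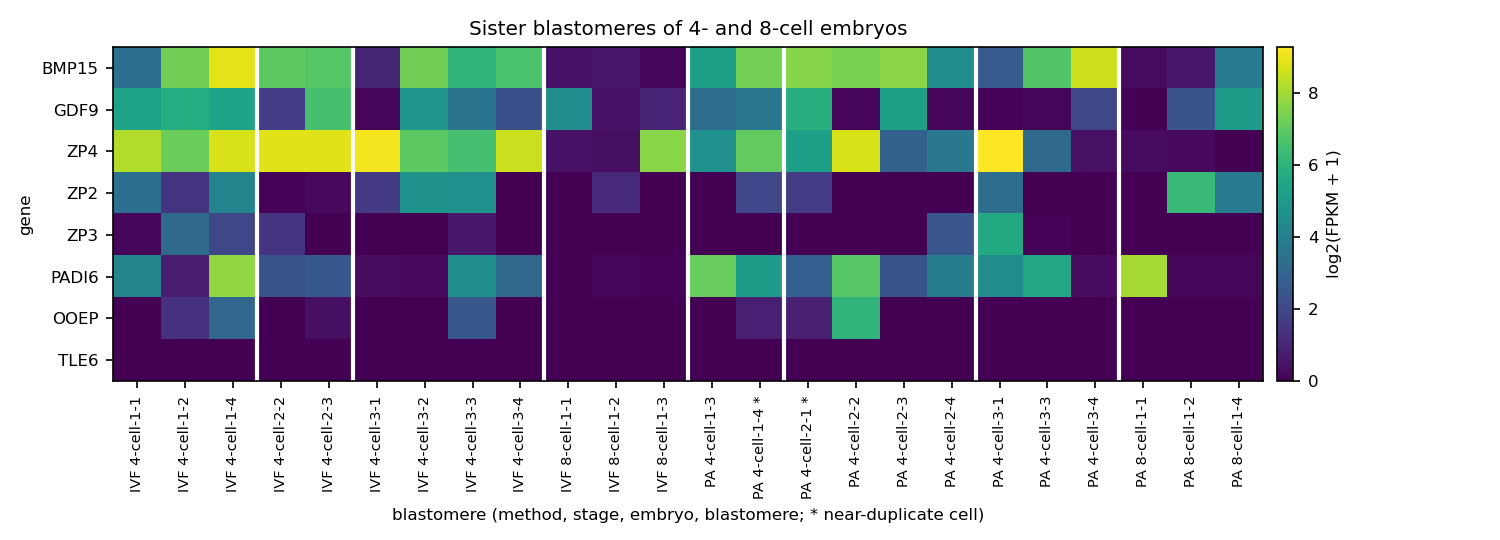
The grid shows log2(FPKM + 1) by colour for the 8 genes (vertical) in the 24 blastomeres of the 4-cell and 8-cell embryos (horizontal, named by method, stage, embryo and blastomere), with an asterisk on the near-duplicate cells. Sister cells of 1 embryo often differed, as for PADI6 in the PA 8-cell embryo, where 1 cell held 258.9 FPKM and the others 0.111 and 0.112.

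Sister blastomeres of a 4-cell embryo differed in most of these genes. BMP15 ran from 9.48 to 476 FPKM among the cells of IVF embryo 1 and from 0.943 to 152 in IVF embryo 3, but only from 112 to 122 in IVF embryo 2. GDF9 ran from 0.118 to 28.5 FPKM in IVF embryo 3, where the low value was 12 fragments, and from 0.1002 to 55.7 in PA embryo 2 (to 37.5 without the near-duplicate cell). ZP4 ran from 0.327 to 617 FPKM in PA embryo 3. Amplification of single cells adds a spread that was not measured apart. The within-embryo SD of log2(FPKM + 1) was therefore set beside that of genes with a mean within 2-fold. In IVF 4-cell embryos it was 2.61 for BMP15 (median of like genes 2.31), 2.01 for GDF9 (2.34) and 2.53 for PADI6 (2.34), so these were near their peers. ZP4 had 0.980 beside a median of 1.93 for its peers in IVF and 3.26 beside 2.38 in PA (3.90 beside 2.44 without the near-duplicate cells). At the 2-cell stage 5 of the 7 genes lay above their peers in IVF and 2 of the 7 in PA. In IVF the SD was 0.811 for GDF9 (0.593) and 0.707 for ZP4 (0.402), but 0.529 for ZP2 (1.09) and 0.775 for OOEP (1.16). In PA it was 0.539 for GDF9 (1.27). PADI6 had the largest of the 7 in PA 2-cell embryos, 2.32 beside 1.25, with cells at 0.284 and 32.5 FPKM in embryo 1 and at 5.94 and 61.51 in embryo 2.

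The number of cells at an FPKM of at least 1 gives the same data as presence. From the 1-cell over the 2-, 4- and 8-cell stages BMP15 reached it in 6 of 6, 12 of 12, 17 of 18 and 1 of 6 cells, and ZP4 in the same numbers. GDF9 reached it in 6, 12, 13 and 3 cells, PADI6 in 6, 11, 14 and 1, and ZP2 in 5, 10, 9 and 3. Leaving out the near-duplicate cells the 4-cell counts were 15 of 16 for BMP15 and ZP4, 11 for GDF9, 12 for PADI6 and 7 for ZP2. Embryos had 6.33 ± 0.577 (SD, n = 3) of the 8 genes at that level in IVF and 6.67 ± 1.15 in PA at the 1-cell stage, and 2 and 4 in the 8-cell embryos. The summed FPKM of the 8 genes was 247 ± 44.3 in IVF and 395 ± 168 in PA at the 1-cell stage, 556 ± 138 and 343 ± 70.3 at the 4-cell stage (327 ± 106 in PA without the near-duplicate cells), and 73.8 and 133 in the 8-cell embryos. The sum of single 8-cell blastomeres ran from 2.51 to 196 FPKM in IVF and from 59.5 to 259 in PA.

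**Figure D3:**
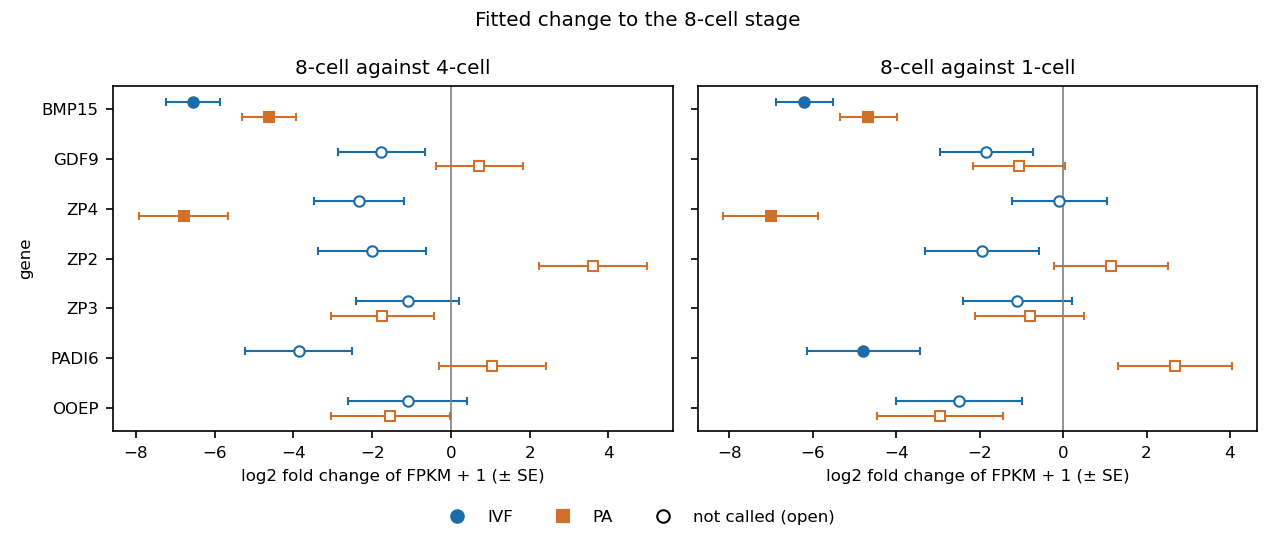
Points give the fitted log2 change of FPKM + 1 to the 8-cell stage for the 7 genes tested, with bars of 1 SE, against the 4-cell and against the 1-cell stage in separate panels; circles are IVF, squares PA, and filled symbols passed the test. BMP15 is filled in all 4 positions (-6.54, -4.61, -6.21 and -4.67), ZP4 in PA alone (-6.79 and -7.01) and PADI6 in IVF against the 1-cell stage alone (-4.79).

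IVF and PA embryos were compared at each stage with 3 embryos a group. None of the 7 genes was called by limma at the 1-cell stage (0.0493% of all genes called), the 2-cell stage (0%), the 4-cell stage (0.554%) or over these stages together (0.0370%). At an unadjusted p under 0.05 only GDF9 at the 4-cell stage was counted, with IVF 1.86 higher, where 1134 of the 8116 genes had such a p. Tests of whether a step differed between methods called 0 of 7 from 1-cell to 2-cell, from 2-cell to 4-cell and from 4-cell to 8-cell, where 0%, 0% and 2.86% of all genes were called. At an unadjusted p under 0.05 the counts were 1 (ZP4), 0 and 3 (ZP2, ZP4 and PADI6), beside 2.80%, 5.35% and 14.5% of all genes. For ZP2 the 4-cell to 8-cell difference was -5.60 (SE 1.94, limma adjusted p = 0.144) and for PADI6 -4.92 (SE 1.92, limma adjusted p = 0.204). Under median-ratio scaling this difference was called for ZP2 (-7.83, limma adjusted p = 0.00621) and ZP4 (6.16, limma adjusted p = 0.0265), and PADI6 was called lower in IVF than in PA at the 4-cell stage (-4.58, limma adjusted p = 0.0130). In the 8-cell embryos, with 1 embryo a method, PA was above IVF in BMP15 (4.47 and 0.357 FPKM), GDF9 (12.5 and 7.74), ZP2 (29.2 and 0.379) and PADI6 (86.4 and 0.0667), and below it in ZP4 (0.130 and 65.2), without a test. From FPKM of Y-chromosome genes the paper sexed the IVF 8-cell embryo and some IVF 4-cell embryos as male, and all PA embryos as female. BMP15 lies on the X chromosome, and in the 8-cell embryos sex cannot be told apart from method.

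The receptors and modulators of GDF9 and BMP15 (26 of 27 listed, 17 tested) included few called genes. From the 1-cell to the 8-cell stage 2 of 17 were called lower in IVF, where 8.23% of all genes were, and 2 lower and 1 higher in PA, beside 6.21% and 7.58% of all, with medians of -0.54 and -0.19 beside -0.77 and -0.58 over all genes. The counts were 2 lower in IVF and 1 lower and 1 higher in PA when the near-duplicate cells were left out, since ACVR1B then missed the threshold (limma adjusted p = 0.0598). BMPR2, the type 2 receptor of both ligands, went from 21.2 ± 8.74 FPKM (SD, n = 3) in PA 1-cell embryos to 0.0214 in the PA 8-cell embryo, a change of -4.35 (limma adjusted p = 0.00202). BMPR1A, a type 1 BMP receptor, was 20.6 ± 6.69 FPKM in IVF 1-cell embryos and 0.0296 in the 8-cell embryo (-4.34, SE 1.24, limma adjusted p = 0.0244). ACVR1B, an activin type 1 receptor, was called lower in PA (-4.60, limma adjusted p = 0.0463), and BMP6, a related ligand, in IVF (-1.79, limma adjusted p = 0.02). BMP6 was also called lower in IVF from the 1-cell to the 4-cell stage (-1.71, limma adjusted p = 0.0170). From the 4-cell stage BMPR2 was called lower in PA (-3.05, limma adjusted p = 0.0258). Neither was called lower with median-ratio scaling, and the BMPR2 call was also lost without the near-duplicate cells. Without those cells BMPR2 was called lower in PA already at the 4-cell stage, against the 2-cell (-2.95, limma adjusted p = 0.0363) and the 1-cell stage (-3.03, limma adjusted p = 0.0269), GDF3 was called higher in both, and FURIN lower against the 1-cell stage. GDF3, a TGF-beta family ligand, was the most abundant of the list over all groups, but below BMPR2 in the 1- and 2-cell groups. From the 1-cell to the 8-cell stage GDF3 rose in PA from 0.852 ± 1.32 to 77.9 FPKM (5.63, SE 1.73, limma adjusted p = 0.0364). That call was lost with mitochondrial mRNAs left out (5.26, limma adjusted p = 0.0540). With median-ratio scaling none of the 17 was called lower over either net change, and 4 (IVF) and 3 (PA) were called higher, where 1499 and 1695 of all 8116 genes were, so that these counts lay near the background.

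Of genes for sperm-egg contact 7 of 12 were listed and 3 tested. The 7 summed to 168.9, 146.7 and 156.0 FPKM in IVF 1-cell embryos and to 170.7 in the IVF 8-cell embryo. In PA the sums were 240.1, 211.7 and 266.7 FPKM at the 1-cell stage and 0.388 at the 8-cell stage. Nearly all of the sum in the IVF 8-cell embryo thus came from listed genes other than OOSP2, and the list was not lost there. OOSP2, an oocyte-secreted protein and the most abundant, went from 154 ± 11.3 FPKM (SD, n = 3) in IVF 1-cell embryos to 46.8 ± 40.8 at the 4-cell stage and 0.256 in the 8-cell embryo. In PA it was at 231 ± 35.1, 197 ± 187 and 0.352 FPKM. It was the only gene of the 3 called, lower from the 4-cell stage in IVF (-4.34, SE 1.23, limma adjusted p = 0.0367) and PA (-6.75, limma adjusted p = 0.00138) and from the 1-cell stage in both (-6.94 and -7.41). Its IVF call from the 4-cell stage was lost without the near-duplicate cells, which are PA cells and leave the IVF change as it was. It was also lost with median-ratio scaling. Of all genes, 3.25% and 3.18% were called lower from the 4-cell stage in IVF and PA, and 8.23% and 6.21% from the 1-cell stage. Under median-ratio scaling OOSP2 was called lower in IVF than in PA at the 4-cell stage (-5.30, limma adjusted p = 0.00251), as were GDF3 (-4.53), NANOG (-4.43) and KITLG (-6.27) of the other lists, where 274 of all 8116 genes were.

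Relatives of the subcortical genes (17 of 30 listed, 11 tested) were called lower in 3 of 11 cases in IVF and 3 of 11 in PA from the 1-cell to the 8-cell stage, with 1 higher in IVF, beside 8.23%, 6.21% and 6.03% of all genes. Their medians were -0.64 and -1.30 beside -0.77 and -0.58 over all genes. NLRP9, an NLR family gene expressed in oocytes and the most abundant of the list, went from 195 ± 23.8 to 4.83 FPKM in IVF (-5.06, SE 0.654, limma adjusted p = 3.37e-05) and from 111 ± 16.9 to 0.324 in PA (-6.39, limma adjusted p = 4.05e-06). From the 4-cell to the 8-cell stage NLRP9 fell by -4.41 in IVF and -6.00 in PA. Its IVF call was lost with median-ratio scaling (-2.38, limma adjusted p = 0.329) and its PA call without the near-duplicate cells (-3.47, limma adjusted p = 0.102). At this step 1 of 11 genes in IVF and 2 in PA were called lower, beside 3.25% and 3.18% of all. In IVF 1 was called higher, beside 3.72% of all. Median-ratio scaling gave 0 lower and 1 higher in IVF and 3 lower and 1 higher in PA. Of all 8116 genes, 165 were then called lower and 985 higher in IVF, and 328 and 1186 in PA. NLRP11 fell from the 1-cell stage in IVF (-3.29, limma adjusted p = 0.0347) and PA (-6.17, limma adjusted p = 0.000435), and NLRP13 in both (-5.43 and -5.28, limma adjusted p = 0.0226 and 0.0273). TLE3, a Groucho family corepressor, rose in IVF from the 4-cell stage, from 0.00487 ± 0.00499 to 6.44 FPKM (2.89, limma adjusted p = 0.00233). With median-ratio scaling 0 of the 11 were called lower and 2 higher in IVF from the 1-cell stage, and 1 lower and 1 higher in PA, where 118 of all 8116 genes were called lower and 1499 higher in IVF and 115 and 1695 in PA, so that NLRP9 and NLRP13 lost their calls in both methods and NLRP11 in IVF. Leaving out the near-duplicate cells, 2 were called lower in each method from the 1-cell stage (NLRP11 in IVF and NLRP13 in PA lost their calls), none in PA from the 4-cell stage, and NLRP9 in PA already from the 2-cell to the 4-cell stage (-3.47, limma adjusted p = 0.0219).

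Other oocyte genes (19 of 26 listed, 18 tested) were called lower in 9 of 18 cases in IVF and 8 in PA from the 1-cell to the 8-cell stage, and none was called higher, where 8.23% and 6.21% of all genes were called lower. Their medians were -4.66 and -4.17, beside -0.77 and -0.58 over all genes. From the 4-cell to the 8-cell stage 5 of 18 in IVF and 6 in PA were called lower, beside 3.25% and 3.18% of all. Leaving out the near-duplicate cells gave 10 and 9 over the whole span and 5 and 4 from the 4-cell stage. In PA it also gave 5 of 18 called lower from the 2-cell to the 4-cell stage, in place of 0. From the 1-cell to the 4-cell stage it gave 5 as well, in place of 0. Without these cells the counts over all genes, in either direction, also rose in both comparisons, as given above. Median-ratio scaling gave 3 called higher in each, where 488 and 578 of all 8116 genes were. With median-ratio scaling the net counts were 4 lower and 2 higher in IVF and 4 lower and 1 higher in PA. Of all 8116 genes, 118 were then called lower and 1499 higher in IVF, and 115 and 1695 in PA. MOS and DNMT1 in both methods and WEE2 in PA were not called with that scaling. BTG4 went from 730 ± 48.1 FPKM (SD, n = 3) in IVF 1-cell embryos over 362 ± 139 at the 4-cell stage to 2.44 in the 8-cell embryo, and in PA from 538 ± 57.6 over 260 ± 122 to 9.77. WEE2, an oocyte kinase that holds the cell cycle, went from 401 ± 88.0 to 0.697 FPKM in IVF (-7.86, limma adjusted p = 5.97e-07) and from 254 ± 67.1 to 8.09 in PA (-4.78, limma adjusted p = 0.000154). H1FOO, the oocyte linker histone, and KPNA7, an oocyte importin, were also called lower in both methods at both spans (-6.84 and -6.65 in IVF, -4.20 and -8.01 in PA, from the 1-cell stage). MOS, which keeps the egg in meiotic arrest, fell by -4.61 in IVF and -4.89 in PA (limma adjusted p = 0.0343 and 0.0269). DNMT1, the maintenance DNA methyltransferase and the most abundant of the list, went from 1333 ± 229 to 41.2 FPKM in IVF and from 1568 ± 478 to 44.4 in PA (-4.97 and -5.06, limma adjusted p = 4.14e-06 and 5.33e-06). UCHL1, a ubiquitin hydrolase, was the 1 gene of the list called between methods under FPKM, lower in IVF at the 4-cell stage (0.666 ± 0.759 and 20.1 ± 7.74 FPKM, -3.69, limma adjusted p = 0.0327), but not without the near-duplicate cells (-1.38, limma adjusted p = 0.451). Median-ratio scaling called 4 of the list lower in IVF at that stage, KPNA7 (-4.31, limma adjusted p = 0.00247), H1FOO (-2.93), DNMT1 (-2.57) and UCHL1 (-3.83), and KPNA7 and H1FOO also over the 1-, 2- and 4-cell stages together. From the 2-cell to the 4-cell stage UCHL1 was called lower in IVF (-3.83, limma adjusted p = 0.00779), a call lost without those cells (limma adjusted p = 0.0554) and with median-ratio scaling (-2.37, limma adjusted p = 0.246).

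**Figure D4:**
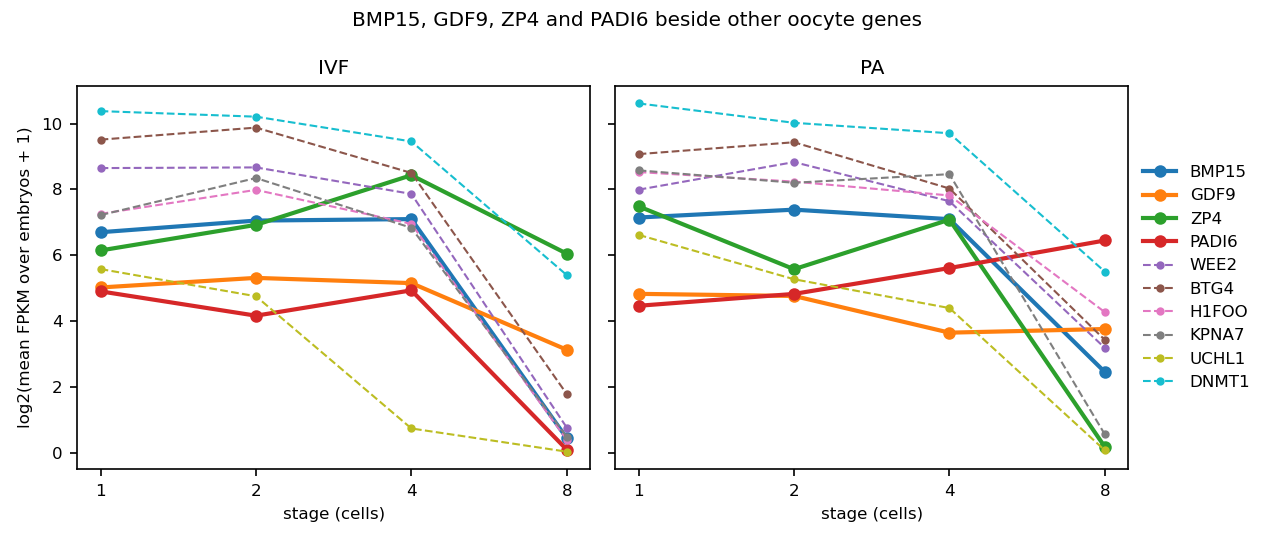
Lines join the group means of log2(mean FPKM over embryos + 1), without error bars, at the 1-, 2-, 4- and 8-cell stages for IVF and PA in separate panels, solid for BMP15, GDF9, ZP4 and PADI6 and dashed for other oocyte genes. BMP15 dropped at the 8-cell stage in both panels as the dashed genes did, from 136 to 0.357 FPKM in IVF and from 136 to 4.47 in PA, while PADI6 ended at 86.4 FPKM in PA and 0.0667 in IVF.

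Of genome activation genes 6 of 13 were listed and 5 tested. SALL4, a pluripotency factor and the most abundant over all groups, was at 72.7 ± 19.5 FPKM (SD, n = 3) in IVF 1-cell embryos. It was at 69.7 in the IVF 8-cell embryo and was not called. In PA 4-cell embryos NANOG was above it (87.9 and 52.7 FPKM). TFAP2C, a transcription factor of early lineages, rose in IVF from 0.166 ± 0.123 FPKM at the 2-cell stage to 36.5 ± 33.2 at the 4-cell stage (4.35, limma adjusted p = 0.0283), a call lost with median-ratio scaling (4.12, limma adjusted p = 0.0846). It was at 8.94 in the IVF 8-cell embryo. NANOG, another pluripotency factor, rose in PA from 0.0554 ± 0.0540 at the 1-cell stage to 87.9 ± 54.4 at the 4-cell stage (6.21, limma adjusted p = 0.0130). In PA, 2 of the 5 were called higher from the 1-cell to the 8-cell stage (NANOG and TFAP2C), and in IVF none, with median changes of 3.49 in IVF and 4.47 in PA, where 6.03% and 7.58% of all genes were called higher. With median-ratio scaling 4 of 5 were called higher in IVF and 5 of 5 in PA over that span, beside 1499 and 1695 of all 8116 genes. From the 2-cell to the 4-cell stage 0 of 5 changes were negative in either method. Their medians were 4.32 in IVF and 2.21 in PA, beside -0.23 and -0.17 over all genes. Median-ratio scaling called 4 of 5 higher in PA at this step and 5 of 5 from the 1-cell stage. Of all 8116 genes 488 and 578 were. In IVF it called 0 of 5 at both. From the 4-cell to the 8-cell stage the median change was -0.18 in IVF, with 3 of 5 negative. In PA it was 0.64, with 1 of 5 negative. Among the 18 4-cell blastomeres the summed level of these genes had r = -0.412 with GDF9, -0.480 with ZP2, -0.241 with BMP15 and 0.315 with ZP4 on the log2 scale (-0.382, -0.480, -0.203 and 0.312 in the 16 without near-duplicates). These cells share embryos and a common total of FPKM. Of the cumulus and granulosa markers 1 of 4 tested was called, KITLG, lower in IVF from the 1-cell to the 8-cell stage (-4.36, limma adjusted p = 0.0309), where 8.23% of all genes were called lower, a call lost with median-ratio scaling (-2.55, limma adjusted p = 0.306). Of the oocyte markers 5 of 8 were called lower in each method over the same span, beside 8.23% and 6.21% of all genes, and 4 (IVF) and 3 (PA) with that scaling, beside 118 and 115 of all 8116. The oocyte markers called lower were WEE2, BTG4, H1FOO, KPNA7 and MOS. Of these WEE2, BTG4, H1FOO and KPNA7 also stand among the other oocyte genes above, so the counts of these lists are not separate results. Without the near-duplicate cells the counts up to the 4-cell stage also moved in PA. From the 2-cell and from the 1-cell stage 2 oocyte markers (MOS and BTG4) were called lower in place of 0. Genome activation genes called higher were 1 and 2 in place of 0 and 1. The counts over all genes, 32 and 77 of 8116 in the main fit, rose as well, as given above. VCAN was called lower from the 1-cell stage. KITLG was called lower in IVF than in PA at the 4-cell stage (-3.47, limma adjusted p = 0.0493).

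Genes whose pattern was most like that of each member were taken as the 3 with the highest Pearson r of log2(FPKM + 1) over the 20 embryos. For BMP15 these were IGF2BP3 (0.950), KPNA7 (0.949) and H1FOO (0.949), and for GDF9 MCM6 (0.881), ENSSSCG00000031705 (0.869) and ANAPC7 (0.857). ZP4 had lower values, with ENSSSCG00000013721 (0.778), CTBS (0.754) and CDC40 (0.746), as did PADI6 with LONP2 (0.731), NUP88 (0.720) and ENSSSCG00000012125 (0.706). For ZP2 they were NAA20 (0.753), SASH1 (0.752) and TMEM159 (0.736), the last of which overlaps it. ZP3 had SPTAN1 (0.842), ASXL3 (0.816) and UBE2G2 (0.794), and OOEP had WNT3 (0.906), CIT (0.881) and FBXO15 (0.866). The embryos share stage, so high values follow any common course over development. Among the members the highest r over embryos was that of GDF9 with OOEP (0.571), and OOEP with PADI6 had 0.0427 over embryos and 0.418 over cells.

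Scaling bears on each direction given. Under FPKM, 57.7% of the genes called from the 1-cell to the 8-cell stage in IVF and 45.0% in PA were lower. With each cell scaled by its median ratio over nuclear genes expressed in every cell, these shares were 7.30% and 6.35%, and the median change of all genes moved from -0.77 to -0.06 in IVF and from -0.58 to -0.10 in PA. The genes called lower over this span went from 668 to 118 in IVF and from 504 to 115 in PA. From the 4-cell stage the shares were 46.6% and 31.8% under FPKM and 14.3% and 21.7% under that scaling. At this step the genes called lower went from 264 to 165 in IVF and from 258 to 328 in PA. Those called higher went from 302 to 985 and from 553 to 1186. The PA share thus fell while more genes were called lower. The factors ran from 0.0395 (PA 4-cell-3-3) to 4.12 (IVF 1-cell-2). BMP15 was called lower under both, by -5.49 and -6.37 from the 4-cell stage and -3.91 and -3.34 from the 1-cell stage in IVF and PA, and so was ZP4 in PA (-6.74 and -4.73). Signs turned between the scalings in 26 of the member and comparison pairs, none of them called under FPKM. Of these BMP15 in PA was called higher under median-ratio scaling, by 2.50 from the 2-cell and 3.02 from the 1-cell to the 4-cell stage (limma adjusted p = 0.0377 and 0.00942).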

How the data were processed

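Sources: the table of gene FPKM that the authors deposited for 42 cells. According to the study's methods, single cells were reverse transcribed and amplified by Ansuper-seq, a method that takes transcripts with or without poly(A) tails, and clean reads were mapped to Sscrofa11.1 by HISAT2 (both also in the submitters' processing notes), counted by HTSeq and turned into FPKM by the authors. The labels instead describe Trizol extraction and a TruSeq kit, and this difference could not be settled. Amplification and whole-library scaling can both add to the spread of a single transcript between cells.

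Embryo values were means of blastomere FPKM, and tests were limma 3.58.1 (R 4.3.3, trended variance) of log2 FPKM with a pseudocount of 1. The 8116 genes kept had 3 or more cells at an FPKM of 1 or above, and the 20 embryos of all 8 groups shared 1 fit. P-values were adjusted by Benjamini-Hochberg over all genes, and calls needed an adjusted p below 0.05 and a change of at least 2-fold. The fold change of a low gene is understated by the pseudocount of 1. Fragments were recovered from FPKM steps for 12787 genes (87.0% of those expressed), of which 12754 were whole within 0.02 of a fragment. Python 3.11.15, numpy 2.4.6, pandas 2.3.3, pysam 0.24.0 and matplotlib 3.10.9 did the rest. Promoters came from RefSeq (Sscrofa11.1), and all 10 names matched.

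The members and lists were chosen with earlier results of these data known. Named were all members, and from each list the genes called in a step or net change, at most 6 by the size of the IVF 8-cell against 1-cell change, plus the most abundant. Alternatives were pseudocounts of 0.1 and 5, filters of FPKM 5 or above 0, scaling without mitochondrial mRNAs or by median ratio, log means or medians of blastomeres, blastomeres with the embryo as a random block, embryo number as a block, only the groups compared, leaving out each embryo and leaving out the near-duplicate cells. For the lists, between methods too, scaling and the near-duplicate cells, and for the ratio of BMP15 to GDF9 these cells, were chosen after seeing the data.

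No source ties embryos that carry the same number in separate groups, and the check of their pairing is given with the alternatives.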

Additional observations from a re-analysis of the deposited data

Results flagged for a closer look

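In 32 sets of cells, 1 for each gene in each group of 6 or 9 cells, 7 had a highest or lowest cell far from the rest, where chance gives about 1 in 20 for values that vary freely. That rate does not hold where the other cells are at or near 0, as in the TLE6 and OOEP sets and the 2-cell ZP3 set, so the number of sets is not read as an excess. BMP15 was at 47.63 FPKM in PA 2-cell-3-1, while the other 5 cells ran from 152.2 to 258.4. OOEP was at 12.06 FPKM in PA 2-cell-2-2 (others 0 to 0.7529) and at 66.66 FPKM in PA 4-cell-2-2 (others 0 to 0.7931). ZP3 was at 48.91 FPKM in PA 4-cell-3-1, with the others from 0 to 4.562, and at 0.1387 FPKM in PA 2-cell-3-2, with the others from 0 to 0.03989. TLE6 was at 1.539 FPKM in IVF 2-cell-2-1 and at 0.5309 in PA 2-cell-3-2, with all other cells of these groups at 0. Without the near-duplicate cells, a step chosen after seeing the data, ZP2 stood apart in PA 4-cell-3-1, at 8.907 FPKM beside 0 to 0.02235. This was the same blastomere in which ZP3 was high, but ZP3 no longer passed as standing apart at this step.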

How the results depend on the processing

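Of the 17 comparisons, each tried under 12 alternatives other than leaving out a single embryo, the count of members called was within 1.5 times of the reported count in 185 cases, higher in 14 and lower in 5, and no call of a member reversed. Leaving out mitochondrial mRNAs, another filter on low values or the near-duplicate cells changed none of these counts. Median-ratio scaling gave 3 members called from 2-cell to 4-cell in PA, 1 in IVF and 2 in PA from 1-cell to 4-cell, 1 in IVF and 4 in PA from 1-cell to 8-cell, 1 between methods at the 4-cell stage and 2 for the difference of the 4-cell to 8-cell step. A pseudocount of 0.1 gave 2 from 4-cell to 8-cell in IVF and 1 for that difference, and one of 5 gave 1 from 1-cell to 8-cell in IVF. Means of log2 over blastomeres gave 2 from 4-cell to 8-cell in IVF and 2 from 1-cell to 4-cell in PA. Medians over blastomeres gave 2 in IVF and 1 in PA from 4-cell to 8-cell and 4 in IVF from 1-cell to 8-cell. Blastomeres with the embryo as a random block gave 2 from 4-cell to 8-cell in IVF. With only the groups compared, 0 were called from 4-cell to 8-cell in IVF and in PA by limma, where the fit had fewer embryos. Other causes were not tested.

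The count over all genes moved more than that of these genes. Without the near-duplicate cells 601 genes in place of 32 were called from 2-cell to 4-cell in PA, 881 in place of 77 from 1-cell to 4-cell in PA, and 330 in place of 45 between methods at the 4-cell stage. With median-ratio scaling these counts were 494, 607 and 369, those from 4-cell to 8-cell were 1150 in place of 566 (IVF) and 1514 in place of 811 (PA), and that from 1-cell to 8-cell in PA was 1810 in place of 1119. With only the groups compared 0 (IVF) and 97 (PA) genes were called from 4-cell to 8-cell, and 1869 in place of 1157 from 1-cell to 8-cell in IVF. Without a filter 853 were called from 4-cell to 8-cell in IVF. Log means, medians and the random block gave 457, 411 and 471 from 4-cell to 8-cell in PA, and 1428, 735 and 501 in place of 179 from 1-cell to 4-cell in IVF, and log means gave 1771 from 1-cell to 8-cell in IVF. The difference of the 4-cell to 8-cell step had 232 genes called, and from 50 (log means) to 1076 (median-ratio scaling) under the alternatives that moved it by over 1.5 times. Other counts that moved so were of steps up to the 4-cell stage and of methods compared.

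Leaving out each embryo gave 1 to 2 from 4-cell to 8-cell in IVF (2 without IVF 4-cell embryo 2), 1 to 2 from 1-cell to 8-cell in IVF (1 without IVF 1-cell embryo 1 or 3, where PADI6 was lost) 2 to 3 from 4-cell to 8-cell in PA (ZP2 added, called higher, without IVF 4-cell embryo 2) and 0 to 1 for the difference of that step (ZP2, without the same embryo). Groups of 1 embryo cannot lose it.

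With embryo number as a replicate block the count from 4-cell to 8-cell in IVF was 2 (PADI6 added at -4.63), and it changed no other member call. Of 45 pairs of same-numbered embryos 3 had a correlation of deviations over 0.1 (range -0.0410 to 0.355). The highest, 0.355 and 0.282, were those of PA 2-cell with PA 4-cell embryos 1 and 2, which hold the near-duplicate cells. In these PA groups a pairing cannot be told apart from the near-duplicates. The remaining pair over 0.1 was embryo 1 of IVF 4-cell with that of PA 4-cell (0.127). Elsewhere no correlation passed 0.1, which cannot show whether embryos shared a culture day or a source of oocytes.

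Depth limits the low values, as for BMP15 in the IVF 8-cell blastomeres, which rested on 5, 19 and 4 fragments.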

Other observations

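Unnamed genes lay at the RefSeq positions of the NLR genes that were not listed by name. ENSSSCG00000028861 (chr6:60403403-60412523, +) and ENSSSCG00000031929 (chr6:60381491-60381740, +) overlap the RefSeq gene NLRP5 at chr6:60375670-60418908, a subcortical complex gene. ENSSSCG00000028861 was at 7.69 ± 12.9 FPKM (SD, n = 3) in IVF and 18.2 ± 15.6 in PA 1-cell embryos, 8.39 ± 9.89 and 21.3 ± 36.0 at the 2-cell stage, and 16.2 ± 28.0 and 61.2 ± 106 at the 4-cell stage. The PA 4-cell mean came almost wholly from 1 blastomere at 367 FPKM, with 1 of 9 cells at an FPKM of at least 1. The IVF 4-cell mean came from 1 embryo at 48.6 FPKM, with a highest cell at 186 and 2 of 9 cells at that level. The gene was at 0 in the IVF 8-cell embryo and at 0.0278 in the PA 8-cell embryo. ENSSSCG00000031929, a short gene model, was above 1 FPKM in all 1-cell embryos (7.47 ± 7.28 in IVF and 8.59 ± 10.5 in PA), was at 16.5 ± 17.7 in IVF 2-cell embryos, and was at 0 in all PA 2-cell cells and all 4-cell and 8-cell cells. ENSSSCG00000003277, which overlaps the RefSeq gene NLRP2 (chr6:59191459-59212026), had a mean of 0.00286 FPKM over the 42 cells. These genes were looked at after the names were found missing, and whether they are the named genes was not tested.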
